A study of Mus musculus with 16 samples.

Results

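WNT ligand genes encode the secreted proteins that open WNT signalling. They are described here through 10 members, Wnt7b, Wnt10a, Wnt4, Wnt7a, Wnt6, Wnt2, Wnt11, Wnt5a, Wnt9a and Wnt3, which were listed by symbol and found in the count tables by Entrez identifier. They are 10 of the 19 mouse WNT ligand genes and 10 of the 24467 genes in each table and were taken by name, not by a measured value, although earlier results of these data were known. All 10 passed the filter on low counts.

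RNA was sequenced in bulk from cancer cells sorted out of orthotopic pancreatic tumours, which grow in the pancreas of a host mouse. The tumours came from 1 cell line, KPC 7TCF-eGFP/Porcn-DMA, so all 4 groups carry the same reporters and the same background. KPC lines are mouse pancreatic ductal adenocarcinoma (PDAC) cells. In 7TCF-eGFP, TCF binding sites drive green fluorescent protein. Neither the make-up of Porcn-DMA nor the strain, sex, age or any treatment of the hosts is stated in the labels. Sorting gave 4 groups of 4 libraries from 4 mice per group: DN (negative for both colours), GFP (green only), mScarlet (red only) and DP (positive for both). The design names a WNT-responsive, a WNT-secreting, a double-positive and a double-negative population. GFP fits the first of these, and mScarlet is the gate left for WNT-secreting cells, although no label says so in words.

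A WNT protein is made in the endoplasmic reticulum, where the acyltransferase Porcn attaches a lipid to a conserved serine. The carrier Wls then takes the lipidated protein to the cell surface. Outside, the lipid sits in the groove of a Frizzled receptor, and with the co-receptors Lrp5 and Lrp6 the ligand stabilises beta-catenin, which acts with TCF/LEF factors in the nucleus. Other ligand and receptor pairs, classically with Wnt5a or Wnt11, act without beta-catenin. In pancreatic cancer, WNT ligands can come from the cancer cells or from the stroma.

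Porcn, which the name of the cell line contains, acts on this serine, so its coding sequence is shown for the 5 most abundant members, read from the GENCODE M21 transcripts (GRCm38). Each run is 24 bases of the sense strand, 5′ to 3′, and the capitals mark the serine codon.
Wnt7b: tgtcacggtgtgTCAggctcctgt
Wnt10a: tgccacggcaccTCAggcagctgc
Wnt4: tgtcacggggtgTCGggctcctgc
Wnt7a: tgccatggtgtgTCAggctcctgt
Wnt6: tgccatgggcttTCGggttcctgc
The stretch was found in 19 of 19 ligand genes, the 10 members included. Wnt7b and its closest relative Wnt7a differed at 2 of 24 bases, Wnt7b and Wnt4 at 3, and Wnt7b and Wnt10a at 8. Among the 10 members the serine codon was TCA in 3, TCT in 3, TCG in 2, AGT in 1 and TCC in 1.

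The tables held 80647185 to 104273669 counts per library. Keratins and Cdh1, markers of the ductal epithelium, were high in every library (Krt19 5770 to 16800 CPM, Cdh1 308 to 1450 CPM), where CPM is a count scaled to a common library size with TMM factors. Of the 12 epithelial markers, 4 were low: Epcam, Cldn4, Cldn7 and Esrp1 had medians of 0.194, 1.27, 0.0242 and 0.0432 CPM. Markers of other cells were highest in GFP library 4 (fibroblast and acinar lists, 11000 and 28900 summed CPM) and in GFP library 1 (macrophage and erythroid lists, 37600 and 4710 summed CPM). The macrophage list also differed along the GFP axis, with medians of 6090 summed CPM in GFP and 7260 in DP. They were 1800 in DN and 1710 in mScarlet, and single libraries overlapped. The part of macrophages in the GFP comparisons below was not tested. In every gate library 1 had the most erythroid signal. Because the libraries are bulk, fewer cells that express a gene and less RNA per cell cannot be told apart.

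Wnt7b, Wnt10a and Wnt4 made up nearly all of the ligand transcripts. To compare genes, CPM was divided by exon length, giving CPM per kb. On that scale the 3 genes together held 83.5% (GFP library 4) to 97.3% (mScarlet library 1) of the sum over the 19 ligand genes. Mean levels per kb followed the order Wnt7b, Wnt10a, Wnt4, Wnt7a, Wnt6, Wnt2 in all 4 gates. In DN the means were 74.7 ± 10.6 CPM per kb for Wnt7b, 67.9 ± 22.0 for Wnt10a, 13.0 ± 2.18 for Wnt4, 7.31 ± 2.47 for Wnt7a and 2.80 ± 1.35 for Wnt6 (SD, n = 4). In mScarlet they were 60.6 ± 6.57, 29.6 ± 8.02, 22.3 ± 4.64, 4.69 ± 3.35 and 2.05 ± 1.00 CPM per kb in the same order (SD, n = 4). The neighbours in this order were not equally well separated. Wnt7b and Wnt10a levels overlapped between libraries in DN and GFP and did not in mScarlet and DP, whereas Wnt10a and Wnt4 overlapped in mScarlet and DP and did not in DN and GFP. Wnt7a and Wnt6 overlapped in all 4 gates. Within single libraries Wnt7a was the higher of these 2 in every DN library. Wnt6 was the higher in GFP library 1, mScarlet libraries 1 and 3 and DP library 1, so their order is not resolved in GFP, mScarlet and DP. From the sixth place on every neighbouring pair overlapped in each gate.

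**Figure D1:**
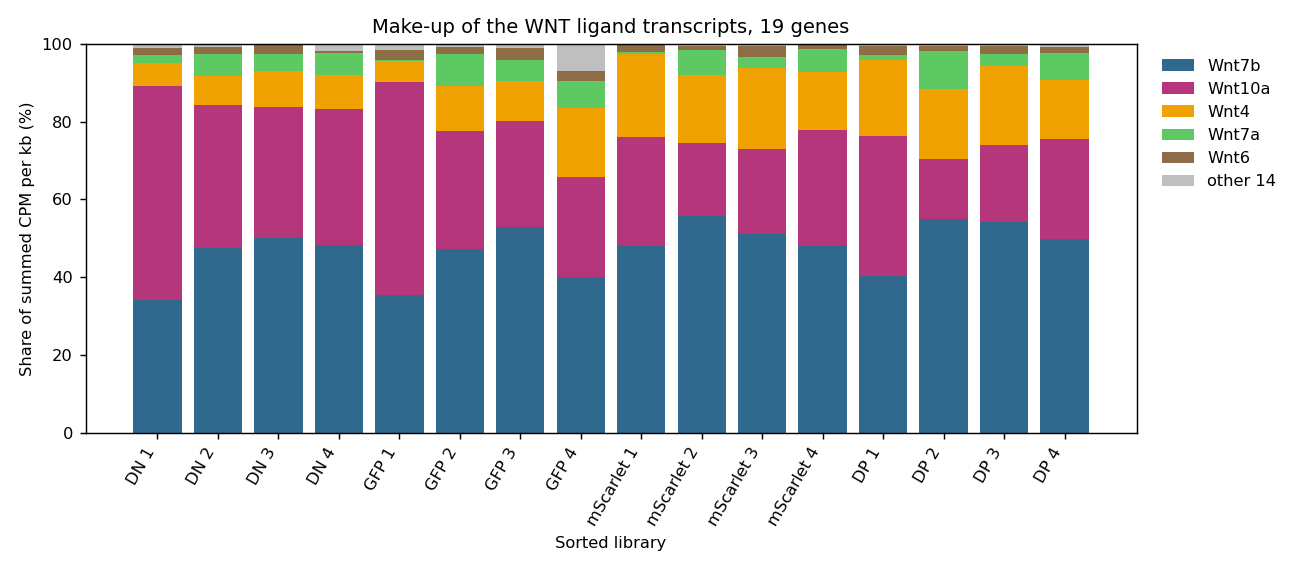
Share of each WNT ligand gene in the summed CPM per kb of all 19 ligand genes (y axis, percent) in each of the 16 libraries (x axis). The Wnt10a part runs from 25.7% to 55.2% in the DN and GFP libraries and from 15.3% to 35.9% in the mScarlet and DP libraries, and the Wnt4 part is 5.33% to 17.8% and 14.8% to 21.2%.

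The make-up differed with the mScarlet gate. Wnt10a held 37.4% ± 11.6 of the per-kb total in the 8 mScarlet-negative libraries (DN and GFP) and 24.4% ± 6.76 in the 8 mScarlet-positive ones (mScarlet and DP), while Wnt4 held 9.55% ± 3.96 and 18.5% ± 2.48 (SD, n = 8). Per kb, Wnt10a exceeded Wnt4 by a mean ratio of 4.88 ± 3.27 in mScarlet-negative and 1.35 ± 0.44 in mScarlet-positive libraries. The highest ratios, 9.46 and 10.3, were those of DN library 1 and GFP library 1. The summed level of the 19 ligands was 164 ± 16.6 CPM per kb in mScarlet-negative and 117 ± 10.6 in mScarlet-positive libraries, and its ranges, 137.1 to 185.6 and 103.6 to 134.8, did not overlap. These shares and sums are descriptions and were not tested.

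**Figure D2:**
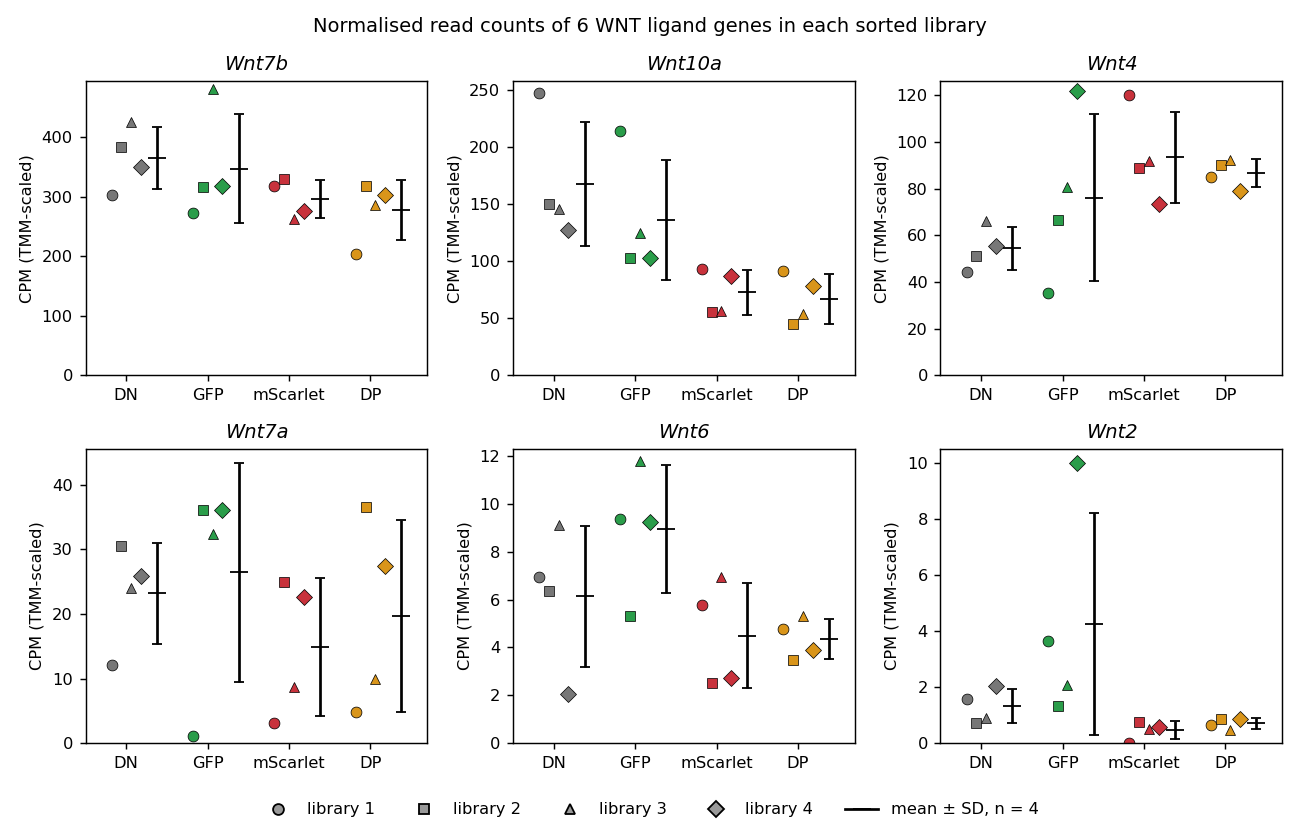
TMM-scaled CPM (y axis) in the 4 gates (x axis) of the 6 members with the highest mean CPM per kb, 1 symbol per library, with the mean and SD (n = 4) at the right of each gate. Wnt10a lies above 102 CPM in every DN and GFP library and below 94 CPM in every mScarlet and DP library; Wnt7a is lowest in library 1 of each gate, and Wnt2 is highest in GFP library 4.

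Wnt10a was lower in the mScarlet-positive cells. Wnt10a (Entrez 22409, chromosome 1, 74791516 to 74804179, + strand, GRCm38) is a canonical ligand best known from skin appendages and teeth. Its levels in libraries 1 to 4 were 248, 150, 145 and 127 CPM in DN and 214, 103, 125 and 103 CPM in GFP. They were 93.0, 55.5, 56.4 and 86.9 CPM in mScarlet and 91.7, 44.6, 53.5 and 78.5 CPM in DP. The highest mScarlet-positive library lay below the lowest mScarlet-negative one, and library 1 was the highest in each gate. Averaged over both, mScarlet-positive cells had 2.16-fold less Wnt10a, a log2 fold change of -1.11 (SE 0.21, 95% interval -1.56 to -0.66, edgeR adjusted p = 0.00604). The edgeR quasi-likelihood test called 2 of the 10 members here, both lower, against 8.88% of all genes tested called in either direction and 5.43% lower. Without the 4 libraries numbered 1 the Wnt10a fold change was -1.0 on the log2 scale (edgeR adjusted p = 0.0129).

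Each pairwise comparison that crossed the mScarlet gate had Wnt10a ranges that did not overlap, but only 1 passed the threshold in the model of group alone. DP against DN was called, with a log2 fold change of -1.32 (SE 0.30, edgeR adjusted p = 0.0354), the only member called, against 2.13% of all genes in either direction and 1.57% lower. Leaving out DN library 1 or 2, or any single DP library, ended this call (edgeR adjusted p 0.147, 0.0582, 0.0555, 0.102, 0.119 and 0.0526). For mScarlet against DN the log2 fold change was -1.20 (SE 0.30, edgeR adjusted p = 0.0712), with 0 of 10 members called against 0.996% of genes. For DP against GFP it was -1.02 (SE 0.30, edgeR adjusted p = 0.105), with 0 of 10 called against 0.445%. For GFP against mScarlet it was 0.90 (SE 0.30, edgeR adjusted p = 0.115), with 0 of 10 called against 1.82%. These comparisons share libraries with one another, so they are not separate evidence. Behind the 3 counts of 0, edgeR gave an unadjusted p under 0.05 for 5, 4 and 6 of the 10 members, against 14.3%, 16.0% and 19.3% of all genes tested. DESeq2 called 1, 2 and 3 of the members, and 808, 1010 and 1518 genes in all, and limma voom called no member in any of the 3. With a block for the library number, edgeR called 1 member, Wnt10a, in each of the 3 (edgeR adjusted p 0.00258, 0.0103 and 0.0114). It then called 814, 791 and 1178 genes in all. What the number marks is not stated in the labels.

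Along the GFP axis no member was called. Wnt10a differed between GFP-positive (GFP and DP) and GFP-negative (DN and mScarlet) libraries by -0.21 on the log2 scale (SE 0.21, 95% interval -0.66 to 0.24, edgeR adjusted p = 0.839). For Wnt7b the difference was -0.08 (95% interval -0.36 to 0.19, edgeR adjusted p = 0.923), and for Wnt4 it was 0.19 (95% interval -0.22 to 0.59, edgeR adjusted p = 0.841). edgeR called 0% of all genes in this comparison, in GFP against DN, in DP against mScarlet and in the interaction, which asks whether the GFP difference changes with the mScarlet gate. An unadjusted edgeR p under 0.05 fell to 1 of 10 members for GFP-positive against GFP-negative (Wnt5a), 0 for GFP against DN, 1 for DP against mScarlet (Wnt5a) and 1 for the interaction (Wnt9a), against 9.93%, 10.0%, 3.03% and 3.35% of all genes tested. Neither DESeq2 nor limma voom called a member in any of the 4. The interaction for Wnt10a was 0.18 (95% interval -0.72 to 1.08, edgeR adjusted p = 1.0).

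**Figure D3:**
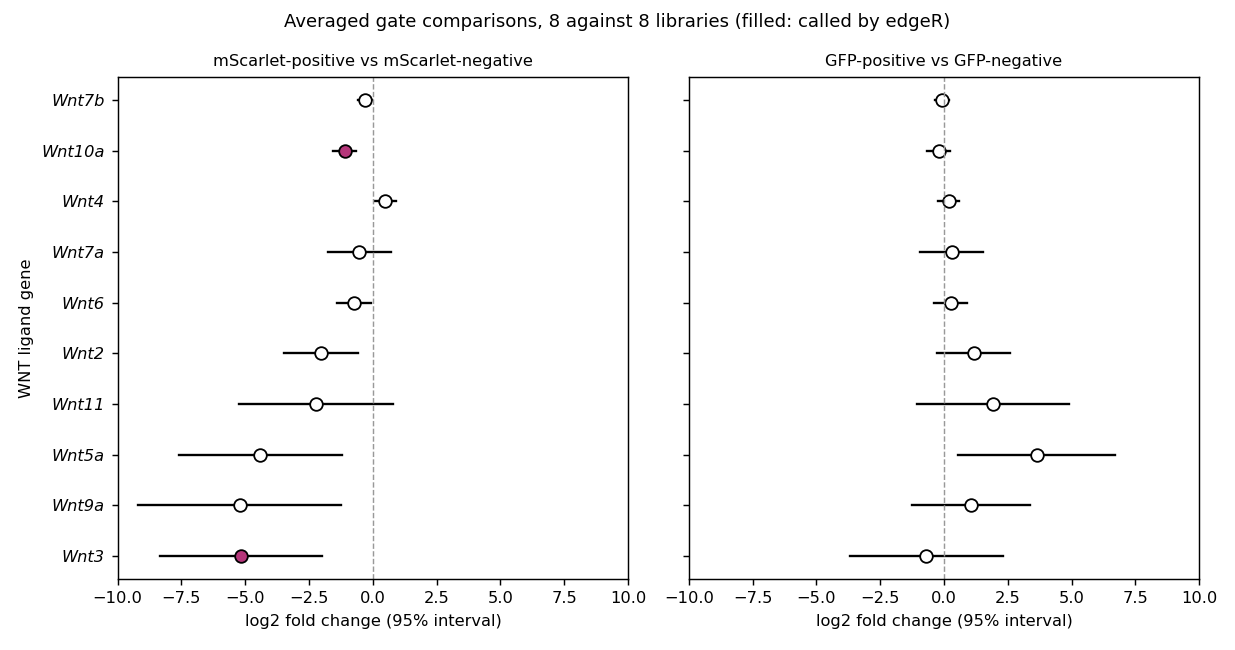
Log2 fold change with its 95% interval (x axis) for the 10 members (y axis) in the averaged mScarlet comparison (left) and the averaged GFP comparison (right), 8 against 8 libraries each; Wnt5a, Wnt9a and Wnt3 rest on few counts. The filled points, called by edgeR, are Wnt10a (-1.11) and Wnt3 (-5.17) on the left. On the right no point is filled, and the interval of Wnt5a (0.55 to 6.70) is the one that leaves out 0.

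Wnt4 had the opposite direction. Wnt4 (Entrez 22417, chromosome 4, 137277489 to 137299726, + strand) is a ligand needed for kidney tubule and female reproductive tract formation. It stood at 44.5, 51.3, 66.3 and 55.4 CPM in DN libraries 1 to 4 and at 35.2, 66.7, 80.9 and 122 CPM in GFP. In mScarlet it was at 120, 88.8, 91.7 and 73.3 CPM, and in DP at 85.0, 90.0, 92.4 and 79.0 CPM. All mScarlet and all DP libraries lay above all DN libraries, while the GFP libraries spanned the whole range. The averaged mScarlet difference was 0.48 on the log2 scale (SE 0.19, 95% interval 0.08 to 0.89, edgeR adjusted p = 0.129) and was not called. Neither was mScarlet against DN (0.78, SE 0.27, edgeR adjusted p = 0.19) nor DP against DN (0.67, SE 0.27, edgeR adjusted p = 0.23). Without GFP libraries 1 and 4, the lowest and the highest for Wnt4, all 3 passed (edgeR adjusted p 0.0421, 0.0205 and 0.0307). The log2 fold changes were then 0.50, 0.76 and 0.66. Neither mScarlet against DN nor DP against DN holds a GFP library, and their calls over all genes rose too, from 159 to 544 and from 340 to 743. The 3 Wnt4 differences stayed uncalled in 21 of 23, 23 of 24 and 22 of 24 alternatives.

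Wnt7b had the highest mean level of the ligands in every gate. Per kb, however, Wnt10a was above it in DN library 1 and GFP library 1, by ratios of 1.62 and 1.56. Wnt7b (Entrez 22422, chromosome 15, 85535437 to 85582473, - strand) is a ligand of epithelia that acts in lung and vessel development, and an antisense gene, AU022754, overlaps it. Its levels in libraries 1 to 4 were 303, 384, 426 and 349 CPM in DN, 272, 317, 481 and 319 CPM in GFP, 317, 330, 262 and 277 CPM in mScarlet, and 205, 318, 287 and 303 CPM in DP. The groups overlapped, and the extremes were GFP library 3 and DP library 1. The averaged mScarlet difference, -0.31 on the log2 scale (SE 0.13, 95% interval -0.59 to -0.04, edgeR adjusted p = 0.149), was not called.

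Wnt7a varied more among libraries of a gate than between gates. Wnt7a (Entrez 22421, chromosome 6, 91363981 to 91411363, - strand) is known for limb patterning and neural development. It stood at 12.2, 30.5, 24.1 and 25.9 CPM in DN libraries 1 to 4 and at 1.07, 36.1, 32.3 and 36.2 CPM in GFP. In mScarlet it was at 3.09, 25, 8.76 and 22.6 CPM, and in DP at 4.82, 36.5, 9.98 and 27.5 CPM. Library 1 was the lowest in each gate, the reverse of Wnt10a. The averaged mScarlet difference was -0.53 on the log2 scale (SE 0.58, 95% interval -1.77 to 0.70, edgeR adjusted p = 0.633). Whether libraries that share a number share a tumour is not stated in the labels.

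Wnt6 lies next to Wnt10a. Wnt6 (Entrez 22420, chromosome 1, 74771892 to 74785322, + strand) ends 6193 bases before Wnt10a begins, on the same strand and with no coding gene between, and an antisense gene, Gm29539, overlaps it. It stood at 6.95, 6.37, 9.12 and 2.08 CPM in DN libraries 1 to 4, at 9.38, 5.33, 11.8 and 9.25 CPM in GFP, at 5.75, 2.52, 6.93 and 2.75 CPM in mScarlet and at 4.79, 3.50, 5.32 and 3.88 CPM in DP. All DP libraries lay below all GFP libraries, by 5.325 against 5.327 CPM at the nearest, and the other pairs of gates overlapped. Its averaged mScarlet difference, -0.74 on the log2 scale (SE 0.31, 95% interval -1.39 to -0.09, edgeR adjusted p = 0.149), pointed the same way as that of its neighbour and was not called. Over the 16 libraries, log2(CPM + 0.5) of Wnt6 and Wnt10a had r = 0.463, with 0.069 within the 8 mScarlet-positive and 0.15 within the 8 mScarlet-negative libraries.

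The 5 remaining members were rare, and single libraries carried much of their signal. A count of 3, taken as the floor, was worth 0.0284 to 0.0388 CPM. Wnt2 (Entrez 22413, chromosome 6, 17988940 to 18030585, - strand), a ligand of mesenchyme, stood at 1.57, 0.734, 0.907 and 2.05 CPM in DN libraries 1 to 4 and at 3.66, 1.32, 2.06 and 9.98 CPM in GFP. In mScarlet it was at 0, 0.751, 0.510 and 0.582 CPM, and in DP at 0.639, 0.877, 0.484 and 0.857 CPM. All mScarlet and DP libraries lay below all GFP libraries. The averaged mScarlet difference was -2.04 on the log2 scale (SE 0.69, 95% interval -3.50 to -0.59, edgeR adjusted p = 0.0753), not called.

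Wnt11 (Entrez 22411, chromosome 7, 98835112 to 98855195, + strand), a ligand of cell movement in the embryo, stood at 0.379, 0.345, 0.243 and 2.81 CPM in DN libraries 1 to 4 and at 1.29, 0, 1.55 and 16.4 CPM in GFP. In mScarlet it was at 0, 0, 1.05 and 0.0330 CPM, and in DP at 0.975, 0, 0.0242 and 2.04 CPM. GFP library 4 alone held 1342 of the 2337 counts. The averaged mScarlet difference, -2.22 on the log2 scale (SE 1.42, edgeR adjusted p = 0.369), was not called.

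Wnt5a (Entrez 22418, chromosome 14, 28504750 to 28527448, + strand), the classic ligand of signalling without beta-catenin, stood at 0.293, 0.734, 0.0664 and 0.241 CPM in DN and at 1.06, 0, 0.0123 and 3.33 CPM in GFP. In mScarlet 1 count was found in the 4 libraries together. DP library 2 reached 0.689 CPM and library 1 reached 0.0867 CPM, and libraries 3 and 4 had no count. The averaged mScarlet difference was -4.40 on the log2 scale (SE 1.5, edgeR adjusted p = 0.0787), not called.

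Wnt9a (Entrez 216795, chromosome 11, 59306928 to 59333552, + strand), a ligand of joint and blood stem cell development, had 406 counts in DN, at 1.91, 0.561, 0 and 1.53 CPM in libraries 1 to 4. GFP had 35 counts, 34 of them in library 4, DP had 20, all in library 1, and mScarlet had 0. With the floor of 3 counts over the group in its place, summed counts were 122-fold lower in mScarlet than in DN. That ratio makes no allowance for the spread between libraries. The fitted 95% interval was -16.27 to -2.69 on the log2 scale. The fitted difference was not called (edgeR adjusted p = 0.182), and neither was the averaged mScarlet difference (edgeR adjusted p = 0.0981).

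Wnt3 (Entrez 22415, chromosome 11, 103774150 to 103817957, + strand), a canonical ligand of the intestinal crypt, was the second member called with the mScarlet gate, on few counts. The 8 mScarlet-positive libraries held 6 counts and the 8 mScarlet-negative ones 324, of which 176 came from DN library 1 (1.67 CPM). GFP libraries 2 and 4 had none, so the ranges overlapped. The ratio of summed counts was 0.0195 (95% interval 0.0071 to 0.0429, counting error only). The fitted log2 fold change, which depends on the prior count, was -5.17 (SE 1.5, edgeR adjusted p = 0.0437). The call held in 6 of 23 alternative analyses, and without DN library 1 the edgeR adjusted p was 0.1.

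Among the other 9 ligand genes, Wnt5b had 598 counts over the 16 libraries, 371 of them in GFP library 4, and Wnt2b had 178, 145 of them in that library. Wnt10b had 161 counts, Wnt1 125, Wnt16 72, Wnt8b 33, Wnt3a 32, Wnt8a 24 and Wnt9b 7. Only Wnt5b and Wnt10b passed the filter, and neither was called in any comparison.

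Fibroblast markers differed between the gates. The summed CPM of 15 fibroblast markers, all detected in each gate, was lowest in the mScarlet gate, between 19.8 and 96.1. It lay between 35.0 and 304 in DP, between 145 and 1610 in DN and between 671 and 11000 in GFP. Col1a1, a defining collagen of fibroblasts, ranged from 5.67 to 1570 CPM, and Pdgfra from 0 to 25.8 CPM, both highest in GFP library 4. That library was also the highest for Wnt2, Wnt11 and Wnt5a, and for 15 acinar markers (28900 summed CPM against 2540 or less elsewhere). The part of fibroblasts or acinar cells in the levels of these ligands was not tested. Wnt3 and Wnt9a did not share this order: both had their highest level in DN library 1, at 458 summed CPM of fibroblast markers, and Wnt3 had no count in GFP libraries 2 and 4. Wnt10a, like the fibroblast sums, had lower gate means in mScarlet and DP (73.0 and 67.1 CPM) than in DN and GFP (168 and 136 CPM), and the part of these cells in that difference was not tested either.

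The genes with the most similar pattern over the 16 libraries were found by Pearson's r of log2(CPM + 0.5), as a description. Nearest to Wnt10a were Aurkb (r = 0.946), Racgap1 (0.943) and Plk1 (0.932), a mitotic kinase, a cytokinesis regulator and a second mitotic kinase. Aurkb was at 22.4 to 53.5 CPM in mScarlet-negative and 7.19 to 19.8 CPM in mScarlet-positive libraries. Since both genes separate by that gate, r was also taken within it: 0.89 in the 8 mScarlet-negative and 0.776 in the 8 mScarlet-positive libraries. Among the mScarlet-negative libraries, DN library 1 and GFP library 1 were the highest for both genes. Aurkb was at 53.5 and 49.2 CPM there, against 22.4 to 31.2 CPM in the others. How far the value of 0.89 rests on these 2 libraries was not tested. Nearest to Wnt4 were Chrd (0.92), which encodes the BMP antagonist chordin, Npdc1 (0.905) and R3hdm4 (0.898). Nearest to Wnt7a were Pla2g12a (0.921), Cyp21a1 (0.914) and Fbxo2 (0.871), and to Wnt7b Copz1 (0.821), Puf60 (0.794) and Alad (0.794). Without GFP library 3 and DP library 1, r of Wnt7b with Copz1 was 0.463, and with Alad 0.469, so those likenesses rest on those libraries. Wnt6 was nearest to Tanc1 (0.814), Trim3 (0.806) and Fam234b (0.794). Wnt2 was nearest to Htra3 (0.957), Gpx7 (0.939) and Efs (0.932), and Wnt11 to Plcl1 (0.91), Msx1 (0.902) and Dact1 (0.9). Within the 8 mScarlet-positive libraries some likenesses were weaker, with r = 0.325 for Wnt2 and Efs, 0.496 for Wnt2 and Gpx7, and 0.519 for Wnt4 and R3hdm4. Between members, Wnt10a and Wnt4 had r = -0.806 within the mScarlet-negative libraries and -0.011 within the mScarlet-positive ones. DN library 1 and GFP library 1 had the highest Wnt10a and the lowest Wnt4 of the mScarlet-negative libraries. How far the value of -0.806 rests on them was not tested.

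**Figure D4:**
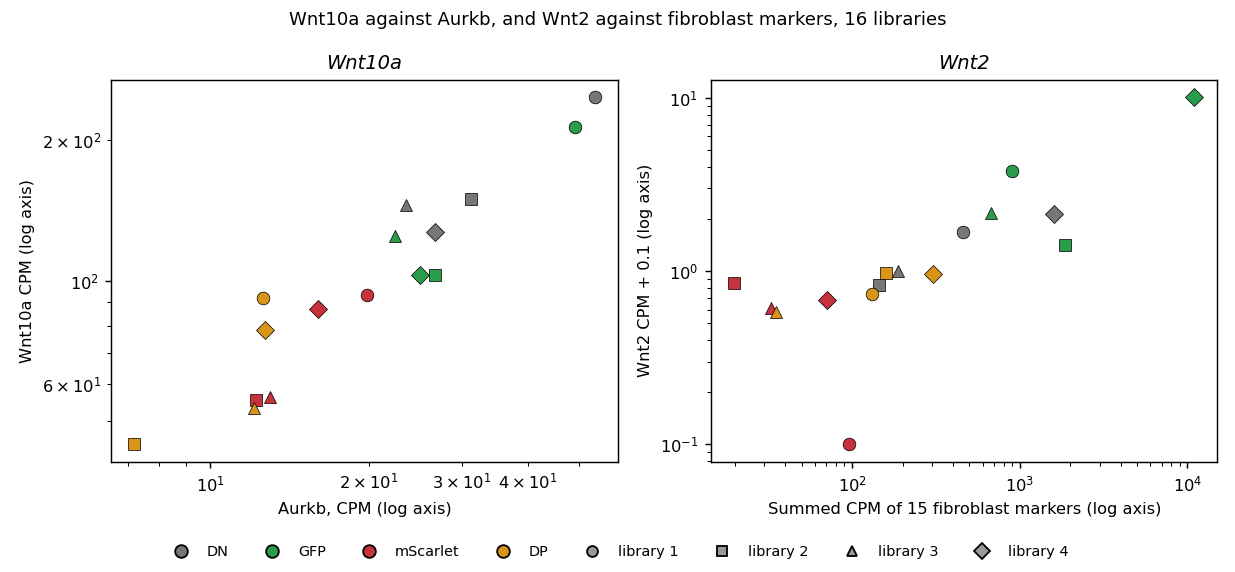
Left, Wnt10a CPM against Aurkb CPM; right, Wnt2 CPM plus 0.1 against the summed CPM of 15 fibroblast markers; all axes are logarithmic, and each of the 16 points is a library, with colour for the gate and shape for the library number. On the left the 8 mScarlet-positive libraries lie at 19.8 CPM of Aurkb or less; on the right GFP library 4, at 11000 summed CPM, has the highest Wnt2, 9.98 CPM.

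In the secretion machinery 1 gene rose with the mScarlet gate. Porcn had 40.0 to 76.0 CPM in the mScarlet and 33.4 to 51.4 CPM in the DP libraries, against 24.2 to 34.0 CPM in DN and 19.1 to 38.3 CPM in GFP. It was higher in mScarlet-positive cells by 0.87 on the log2 scale (SE 0.16, edgeR adjusted p = 0.00493). The line's name contains Porcn, and whether reads of an introduced Porcn sequence were counted was not tested. Wls was at 84.6 ± 19.1 CPM in mScarlet-positive and 78.5 ± 13.0 in mScarlet-negative libraries (SD, n = 8) and was not called. Of the 14 tested genes of the secretion list, 2 were called, against 8.88% of all genes: 1 rose, Porcn, and 1 fell, Trabd2b, which encodes a protease that inactivates WNT proteins (log2 fold change -4.72, edgeR adjusted p = 0.0328). Trabd2b was rare, with a median of 0.0898 CPM in mScarlet-negative libraries and 8.42 CPM in GFP library 4, the library with the most fibroblast signal. The list's median log2 fold change was -0.01, against -0.02 over all genes and -1.58 over the 10 members, where the rarest genes carry the largest values.

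Beyond the ligands and their secretion, 8 of the 44 tested genes of 4 lists, secreted inhibitors among them, were called in the averaged mScarlet comparison (18.2%, against 8.88% of all genes tested, or 5.43% lower). Of 16 tested receptors and co-receptors 0 rose and 2 fell: Fzd2, a Frizzled (log2 fold change -0.67, edgeR adjusted p = 0.0274), and Adgra2, the partner of Reck in Wnt7 signalling (-3.90, edgeR adjusted p = 0.00836), from a mean of 5.37 to 0.375 CPM. Of 6 tested genes of the R-spondin axis, which keeps Frizzled receptors at the surface, Lgr4 rose (1.06, edgeR adjusted p = 0.0348) and Lgr6 fell (-2.94, edgeR adjusted p = 0.00096). Besides the averaged comparison, Lgr6 was called lower in mScarlet against DN (-2.63, edgeR adjusted p = 0.0414), DP against GFP (-3.26, edgeR adjusted p = 0.0368) and DP against DN (-3.80, edgeR adjusted p = 0.00545). Of 17 TCF/LEF factors and feedback targets 1 rose, Ctnnb1, the gene of beta-catenin itself (0.54, edgeR adjusted p = 0.0157), and none fell. Of 5 tested secreted inhibitors 3 fell: Igfbp4, which also binds insulin-like growth factors (-1.42, edgeR adjusted p = 0.000828), Sfrp2 (-5.27, edgeR adjusted p = 0.0239) and Sfrp4 (-5.27, edgeR adjusted p = 0.0377). Sfrp2 and Sfrp4, which bind WNT proteins and are made by fibroblasts, had means of 31.3 and 26.5 CPM in mScarlet-negative and 0.651 and 0.488 CPM in mScarlet-positive libraries. GFP library 4, at 162 and 181 CPM, raised the former. Medians were 6.04 and 2.62 CPM in mScarlet-negative and 0.447 and 0.346 CPM in mScarlet-positive libraries, and the ranges overlapped. The fibroblast markers given above moved the same way, and their part was not tested. Igfbp4 was also called lower in mScarlet and DP against DN and against GFP in each of the 4 comparisons across the gate (edgeR adjusted p 0.0488, 0.0331, 0.0156 and 0.0251). Porcn was called higher in mScarlet than in DN (edgeR adjusted p = 0.03) and than in GFP (edgeR adjusted p = 0.0339). Without GFP libraries 1 and 4, 4 of the 10 calls in these 5 lists held, those of Porcn, Adgra2, Lgr6 and Igfbp4 (edgeR adjusted p 0.0205, 0.026, 0.00294 and 0.0018). Those of Trabd2b, Fzd2, Lgr4, Ctnnb1, Sfrp2 and Sfrp4 did not (edgeR adjusted p 0.175, 0.0811, 0.141, 0.0796, 0.0581 and 0.142).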

How the data were processed

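The authors deposited raw counts per Entrez gene for each of 16 libraries, without normalization. The submitters' processing notes name GRCm38 (mm10), STAR and DESeq2 1.24.0 without their roles. How reads were counted, and whether strand was used, was not given in the sources used here, so reads of overlapping antisense genes (Wnt6, Wnt7b, Wnt5a) and of an overlapping pseudogene (Wnt11) cannot be told apart. Per the labels' protocols, cDNA was amplified by PCR from low input, so floors and the intervals of summed-count ratios cover counting error at most. The intervals of fitted log2 fold changes take in the spread between libraries. Of 24467 identifiers, 24437 matched a RefSeq symbol (GRCm38.p6); the other 30 held 0.723% to 1.931% of counts and stayed in the totals. All pairs of replicates differed by more than sampling noise (lowest chi-square per degree of freedom 91.79).

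Groups came from the sample titles. The quasi-likelihood test of edgeR 4.0.16 (R 4.3.3) used all 16 libraries in a model of group alone. TMM scaling followed edgeR's expression filter, which left 15963 genes, and a call needed a Benjamini-Hochberg adjusted p under 0.05 over these. All 6 pairs of groups, 2 averaged gate comparisons and their interaction were tested. The script was tested on simulated data. CPM per kb used GENCODE M21 exon lengths. Alternatives were DESeq2 1.42.0, limma 3.58.1 (voom), RLE factors, no filter, a replicate block, only the 8 libraries compared, and left-out libraries.

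The members, the pathway and marker lists and the rules were chosen with earlier results of these data known. The text names all members, gives the other 9 ligands by count, and names Porcn, Wls and every called gene of the pathway lists (up to 8 a list), and the 3 genes most correlated with each member of at least 1 CPM on average. Same-numbered libraries deviated together in 20 of 24 pairs (r above 0.1; range 0.053 to 0.37, against -0.257 to 0.17 for other pairs), and every pair did so for DN and GFP, DN and DP, and mScarlet and DP only. The labels do not say what the number marks.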

Additional observations from a re-analysis of the deposited data

Results flagged for a closer look

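In groups of 4 libraries, a library was singled out when its gap to the nearest other as a share of the group's range exceeded Dixon's critical value. This marked 9 of 39 gene and gate combinations, where chance marks about 1 in 20 for values with a normal spread. Where 3 of 4 libraries are at 0 (Wnt3 and Wnt9a in DP, Wnt5a in mScarlet) the mark follows from the zeros, so the rate does not apply. Wnt7a was low in GFP library 1, at 1.07 CPM against 32.3 to 36.2 in the other GFP libraries. Wnt11 was high in GFP library 4 (16.4 CPM), DN library 4 (2.81 CPM) and mScarlet library 3 (1.05 CPM). Wnt9a stood out in GFP library 4 (0.415 CPM) and DP library 1 (0.217 CPM), and Wnt5a in DP library 2 (0.689 CPM). Wnt5a in mScarlet library 3 (0.0111 CPM, 1 count) and Wnt3 in DP library 3 (0.0363 CPM, 3 counts) were at or under the floor of 3 counts.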

How the results depend on the processing

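The lower Wnt10a in mScarlet-positive cells was called in all 23 alternatives (log2 fold change -1.20 to -0.97 and edgeR adjusted p 0.00579 to 0.0162 when single libraries were left out). The number of members called changed as follows. For mScarlet against DN it was 0 (159 genes in all), and 1 with DESeq2, with the replicate block and with only the 8 libraries compared (Wnt10a, adjusted p 0.00301, 0.00258 and 0.0409). It was 2 without GFP libraries 1 and 4 (544 genes in all, and 320 with only the 8 libraries), and 0 to 1 with single libraries left out. For DP against GFP it was 0, and 2 with DESeq2 and 1 with the replicate block. For GFP against mScarlet it was 0, and 3 with DESeq2 and 1 with the replicate block. With the block the Wnt10a adjusted p in these 2 comparisons was 0.0103 and 0.0114. For DP against DN it was 1 (340 genes in all), and 2 with only the 8 libraries (561 genes) and without GFP libraries 1 and 4 (743 genes). It was 0 to 1 with single libraries left out. For the averaged mScarlet comparison it was 2, and 1 with no filter, with limma voom and without the 4 libraries numbered 1 (an alternative chosen after seeing the data), 4 with DESeq2, and 1 to 3 with single libraries left out. Directions turned for differences near 0: Wnt7b in GFP-positive against GFP-negative (0.011 without GFP libraries 1 and 4, and 0.006 without the libraries numbered 1), and, with single libraries left out, Wnt10a in DP against mScarlet (-0.309 to 0.044) and in the interaction (-0.081 to 0.501). The cause was not tested.

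Where every same-numbered pair deviated together (DN and GFP, DN and DP, mScarlet and DP), the replicate block changed no member's call. In the other pairs of gates it added the call of Wnt10a. Of 48 library and gate combinations, 40 correlated best with their own number, a hint from the data only. Over all genes, calls for the averaged mScarlet comparison were 1418, and 2354 with DESeq2, 2270 with the replicate block, 679 without GFP libraries 1 and 4 and 349 without the libraries numbered 1. Calls over all genes were 159 for mScarlet against DN (808 with DESeq2, 814 with the block, 21 without the libraries numbered 1), 340 for DP against DN (1020, 975 and 84), 71 for DP against GFP (1010, 791 and 0) and 290 for GFP against mScarlet (1518, 1178 and 0). GFP-positive against GFP-negative had 0 (323 with DESeq2, 77 with the block), and GFP against DN 0 (245 and 11).

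At this depth 3 counts are under 0.04 CPM, and the 5 rare members had no count in 1 (Wnt2), 4 (Wnt11), 6 (Wnt5a), 7 (Wnt3) and 10 (Wnt9a) of the 16 libraries.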
